A study of Rattus norvegicus with 2 samples.

Results

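Signals were compared for 10 genes that present antigens to T cells, in small mesenteric arteries of portal hypertensive and sham-operated rats. The genes were chosen by name, as all probe sets whose single symbol in the platform annotation was Cd74, RT1-Da, RT1-Db1, RT1-Ba, RT1-DMb, B2m, Psmb8, Psmb9, Tap1 or Tap2. They are 10 of the 4736 genes that the array names by a single symbol, and 21 of its 8740 probe sets that are not controls. The class II loading genes (Cd74, RT1-Da, RT1-Db1, RT1-Ba and RT1-DMb) had 14 of these probe sets and the class I processing genes (B2m, Psmb8, Psmb9, Tap1 and Tap2) had 7.

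The portal hypertensive rats had prehepatic portal hypertension made by partial ligation of the portal vein, and the control rats had a sham operation. First and second order small mesenteric arteries were taken from 20 rats per group, their total RNA was pooled, and each pool was hybridised to 1 RG_U34A array, a rat expression array. The sources used here do not give the strain, sex or age of the rats or the time after surgery. With 1 array per group there is no spread between replicates, no standard error and no p-value, and every difference is one between 2 pools, so precision is limited by the number of arrays.

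Major histocompatibility complex class I molecules, each a heavy chain with beta-2-microglobulin, show peptides made in the cytosol by the proteasome and carried into the endoplasmic reticulum by the TAP transporter. In the immunoproteasome, which interferon-gamma induces, special catalytic subunits take the place of the constitutive ones. Class II molecules are alpha and beta chain pairs that assemble with the invariant chain and receive peptides in endosomes with the help of DM, mainly in macrophages, dendritic cells and B cells. In the rat this complex is called RT1.

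In the portal hypertensive pool the class II loading genes had the higher median ratio, led by RT1-Da, whose gene value was 1.61 times that of the sham pool, while the class I processing genes lay closer to the sham pool. This holds for the members only, as 3 further class II genes with a value had a median log2 ratio of -0.17. Cd74 and RT1-DMb were higher by less than 1.5-fold, RT1-Db1 was lower, and RT1-Ba went both ways on its probe sets. Of the class I processing genes Psmb9 was 1.32 times its sham value, B2m and Psmb8 were nearly level, and Tap1 and Tap2 were both slightly lower.

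According to RefSeq, on the rat assembly GRCr8, 8 of the 10 genes lie on chromosome 20, in the order RT1-Da, RT1-Db1, RT1-Ba, Tap2, Psmb8, Tap1, Psmb9 and RT1-DMb, with Tap2, Psmb8, Tap1 and Psmb9 next to each other. Cd74 is on chromosome 18 and B2m on chromosome 3. RefSeq promoter windows of that build, from 250 bases before to 50 bases after an annotated start, were matched for 9 of the 10 genes, and RT1-DMb was the other. The class II genes are known to share an upstream X box and Y box, and the stretches of RT1-Da (chr20:4515263-4515392, plus strand), RT1-Db1 (chr20:4560183-4560312, minus strand) and RT1-Ba (chr20:4576927-4577056, plus strand) are shown because these chains had the highest, the lowest and a mixed ratio among the class II members. Capitals mark the letters of an X box core (AGCAACNGA), an X2 box (TGACGTCA) or a Y box core (CTGATTGG), each searched on both strands.
RT1-Da: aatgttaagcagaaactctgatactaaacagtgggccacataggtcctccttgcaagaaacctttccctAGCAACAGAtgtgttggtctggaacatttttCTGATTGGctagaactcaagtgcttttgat
RT1-Db1: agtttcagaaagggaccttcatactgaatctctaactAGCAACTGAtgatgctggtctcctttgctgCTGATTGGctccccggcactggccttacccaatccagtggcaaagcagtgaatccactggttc
RT1-Ba: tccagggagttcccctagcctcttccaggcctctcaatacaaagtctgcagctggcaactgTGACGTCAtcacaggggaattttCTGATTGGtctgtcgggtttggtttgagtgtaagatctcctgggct

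The X box core was found in RT1-Da and RT1-Db1 and in 1.33% of all 33469 promoter windows. The Y box core was found in RT1-Da, RT1-Db1, RT1-Ba and Psmb9 and in 3.50% of all windows, and the X2 box in RT1-Ba and in 1.83%. In Psmb9 the Y box letters lie 19 to 26 bases after the annotated start and not upstream of it. RT1-Da and RT1-Db1, whose windows hold both cores, were the class II members with the highest and the lowest ratio. In RT1-Ba the letters GGCAACTGT, which run into the X2 box, differ from the X box core only at the first and last base. Only exact letters were counted, so such a near match was not. The window of Cd74 held none of the X box, X2 box and Y box letters. A letter match is a description and not evidence of binding.

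Interferon-stimulated response elements are known in class I genes. Their core letters, GAAANNGAA on either strand, were found in the windows of B2m, Tap1, Tap2 and Psmb8 and in 9.71% of all windows. Sites of 30 bases are shown with the core in capitals for these genes, because they were the class I members whose windows held the core. They are from B2m (chr3:129549169-129549198, plus strand), Tap1 (chr20:4668645-4668674, minus strand), Tap2 (chr20:4652319-4652348, minus strand) and Psmb8 (chr20:4657016-4657045, minus strand).
B2m: tataagaacatGAAACTGAAaatgggaaag
Tap1: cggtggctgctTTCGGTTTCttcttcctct
Tap2: ggcagcgaagtGAAAGCGAAagcccgggac
Psmb8: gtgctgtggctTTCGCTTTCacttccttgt
In Psmb8 the core lies across the annotated start, at -3 to 5, and not wholly upstream of it. The window of Psmb9 did not hold the core letters. Psmb9 and Tap1 start on opposite strands and their windows overlap by 44 bases. The Tap1 core, at -120 to -112 from the Tap1 start, lies between the starts of these genes and outside that overlap. The Psmb9 window ends before it, so nothing about Psmb9 follows from the missing letters.

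The deposited value is a linear signal intensity per probe set. A floor of 330.9 intensity units, the 40th percentile of both arrays, was applied before log2 was taken, and 17 of the 21 probe sets of these genes were above it in both pools, 0 in only 1 pool and 4 in neither. Ratios are portal hypertensive over sham. The array gives no level that can be set against that of another probe set, so only the difference between the pools is compared from gene to gene. A gene value is the median log2 ratio over the probe sets with a signal above the floor, and genes at least 1.5-fold apart, a log2 ratio of 0.58, were counted. The SD of log2 ratios around the mean of their gene was 0.30, taken from 1801 probe sets of 789 genes. It measures the scatter between probe sets and holds nothing of the differences between rats.

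Across the array, in 105 of 3351 genes with a value the portal hypertensive pool exceeded sham by 1.5-fold or more, a share of 3.13%, and 169 were lower by as much, a share of 5.04%. After quantile normalization these counts were 151 and 139, and after a loess trend on the level was removed 138 and 145. The median gene value was -0.02 and 46.8% of values were above 0. The noted amount of labelled cRNA was 12.5 µg for the portal hypertensive array and 17 µg for the sham array, each with a question mark, and the fluidics module was 1 for the portal hypertensive array and 2 for the sham array, so amount, module and surgery cannot be told apart.

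**Figure D1:**
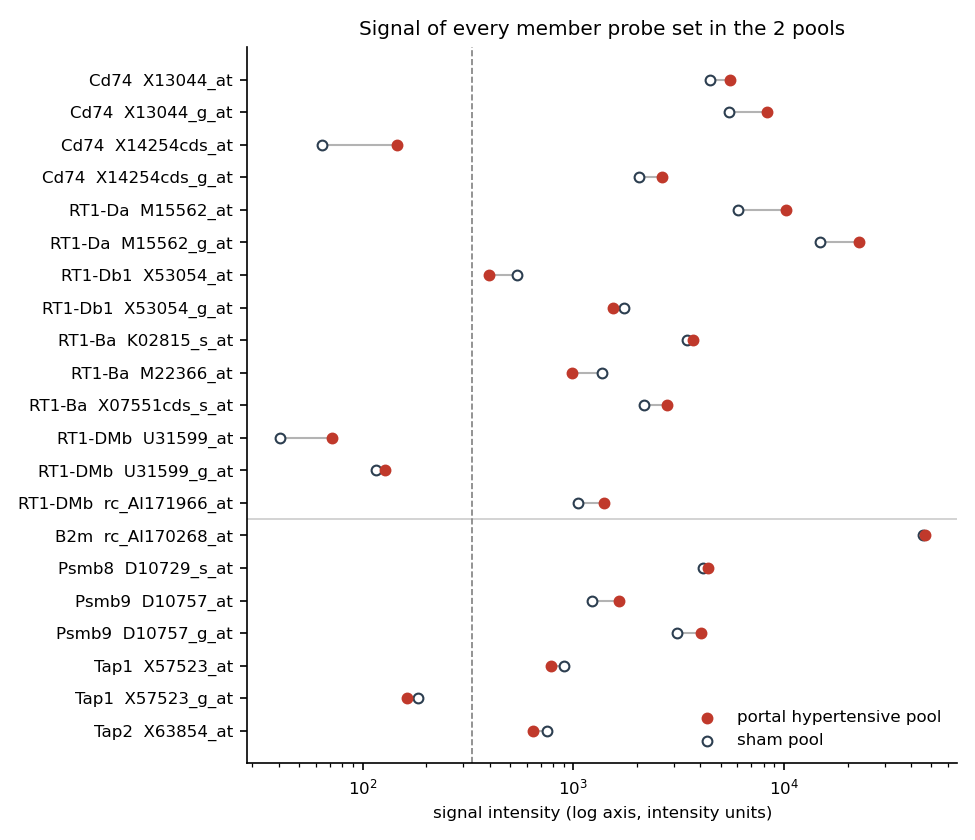
Signal intensity (log axis) of all 21 probe sets of the 10 genes, with filled red points for the portal hypertensive pool and open points for the sham pool, 1 array each. The dashed line is the floor of 330.9, the class II loading genes are above the grey line, and both RT1-Da probe sets are clearly to the right in the portal hypertensive pool.

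RT1-Da encodes the alpha chain of the RT1-D class II molecule. Probe set M15562_at gave a signal of 10192 in the portal hypertensive pool and 6044 in the sham pool, a log2 ratio of 0.75. Probe set M15562_g_at, which names the same source sequence and is no independent reading, gave 22736 in the portal hypertensive pool and 14857 in the sham pool, a log2 ratio of 0.61. Both were higher in the portal hypertensive pool by more than 1.5-fold. The gene value of 0.68 was rank 74 from the highest among 3351 genes. RT1-Da was the only member of the 10 whose gene value was past 1.5-fold, beside 3.13% of all genes on the higher side. Of the 8 alternative settings, those that changed the floor, or kept only probe sets above it in both pools, could not alter this value. Both probe sets lay far above every floor. The value was 0.66 after quantile normalization and 0.68 after the loess trend was removed. It was 0.61 from M15562_g_at alone and 0.75 from M15562_at alone.

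RT1-Db1 encodes a beta chain of RT1-D, the partner of the RT1-Da chain. Probe set X53054_g_at gave 1544 in the portal hypertensive pool and 1735 in the sham pool. Probe set X53054_at gave 397 in the portal hypertensive pool and 542 in the sham pool, only a little above the floor. Both probe sets were lower in the portal hypertensive pool, with log2 ratios of -0.17 and -0.45, and neither reached 1.5-fold. The gene value of -0.31 was about as large as the scatter of 0.30 between probe sets. The alpha chain value minus the beta chain value was 0.99 in log2 ratio. RT1-Db2, a neighbouring beta chain gene, had no probe set named for it here, and RT1 probe sets may read close copies.

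Cd74 encodes the invariant chain, which assembles with class II alpha and beta chains and guides them to endosomes. Probe set X13044_g_at gave 8297 in the portal hypertensive pool and 5480.5 in the sham pool, a log2 ratio of 0.60, and X13044_at gave 5537 and 4440 in the portal hypertensive and sham pools, a log2 ratio of 0.32. Probe set X14254cds_g_at gave 2632 in the portal hypertensive pool and 2050 in the sham pool, a log2 ratio of 0.36. All 3 were higher in the portal hypertensive pool, X13044_g_at by 1.51-fold and the others by less than 1.5-fold. The probe set X14254cds_at was below the floor in both pools, with 145 in the portal hypertensive pool and 64.4 in the sham pool. The gene value of 0.36 was rank 340 from the highest, and it was 0.60, past 1.5-fold, when the probe set of highest level stood for the gene.

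RT1-DMb encodes the beta chain of DM, which helps to exchange the invariant chain remnant for other peptides. Probe set rc_AI171966_at gave 1393 in the portal hypertensive pool and 1052 in the sham pool, a log2 ratio of 0.40. It was the only RT1-DMb probe set above the floor, and the other two read 127.7 and 71.9 in the portal hypertensive pool and 116 and 40.4 in the sham pool. The value thus rests on 1 probe set, and it came to 0.27 with the floor at the 20th percentile, where U31599_g_at entered. RT1-DMa, which encodes the alpha chain of DM, gave 1262 in the portal hypertensive pool and 1419 in the sham pool, a log2 ratio of -0.17.

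RT1-Ba encodes the alpha chain of RT1-B, the other classical class II molecule. Probe set X07551cds_s_at gave 2776 in the portal hypertensive pool and 2167 in the sham pool, a log2 ratio of 0.36. Probe set K02815_s_at gave 3680.5 in the portal hypertensive pool and 3464 in the sham pool, a log2 ratio of 0.09. Probe set M22366_at gave 986 in the portal hypertensive pool and 1367 in the sham pool, a log2 ratio of -0.47. The probe sets went opposite ways, so the direction of RT1-Ba was not settled, and its gene value of 0.09 became -0.47 when probe sets marked as shared were left out. RT1-Bb, which encodes the beta chain of RT1-B, had a gene value of 0.01, with 1226 and 754 in the portal hypertensive pool against 1166 and 751 in the sham pool on its probe sets above the floor in both.

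**Figure D2:**
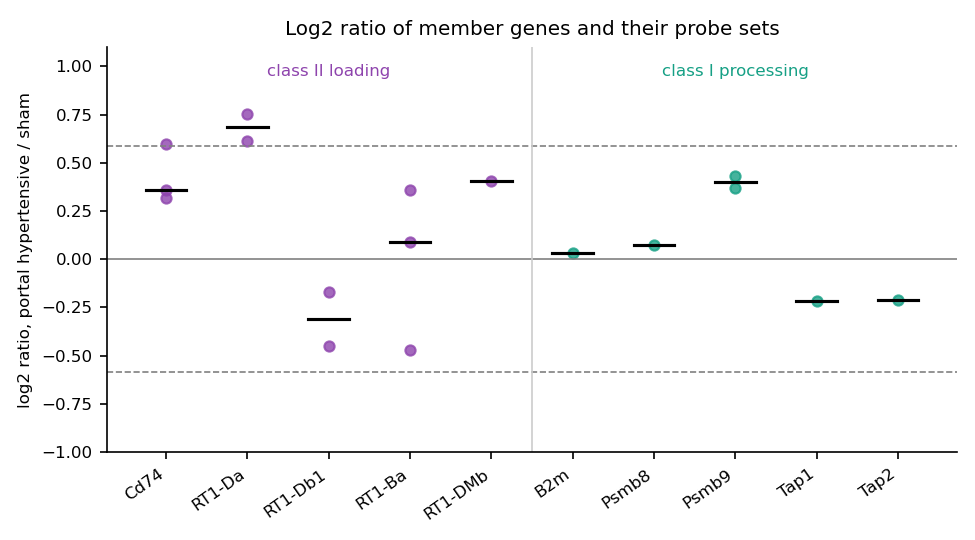
Log2 ratio of portal hypertensive over sham signal for the 17 probe sets above the floor in both pools (points) and for the 10 genes (bars, the median over probe sets), 1 array per pool. Dashed lines mark 1.5-fold, which the gene values of RT1-Da pass and those of the other 9 genes do not.

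B2m encodes beta-2-microglobulin, the light chain of all class I molecules. Its only probe set gave 46518 in the portal hypertensive pool and 45572 in the sham pool. The log2 ratio was 0.03, within the scatter of 0.30 between probe sets of a gene, and it was -0.04 after the loess trend was removed. The pools were close to level for this chain.

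Psmb8 and Psmb9 encode catalytic subunits of the immunoproteasome. Psmb9 gave 4032 in the portal hypertensive pool and 3117 in the sham pool on probe set D10757_g_at, and 1654 in the portal hypertensive pool against 1226 in the sham pool on D10757_at. These are log2 ratios of 0.37 and 0.43, higher in the portal hypertensive pool on both probe sets and below 1.5-fold. Psmb8 gave 4349 in the portal hypertensive pool and 4127 in the sham pool on its single probe set, a log2 ratio of 0.08. Psmb9 minus Psmb8 was 0.33 in log2 ratio. The scatter between probe sets of a gene does not measure the spread of such a difference, so whether the subunits were apart was not settled. The Psmb8 probe set is marked as shared, and no value was left for this gene when such probe sets were dropped.

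Tap1 and Tap2 encode the chains of the peptide transporter of the endoplasmic reticulum. Tap1 gave 782 in the portal hypertensive pool and 907 in the sham pool on probe set X57523_at, and its other probe set was below the floor, with 163 in the portal hypertensive pool and 183 in the sham pool. Tap2 gave 645 in the portal hypertensive pool and 746 in the sham pool. The log2 ratios of both genes were -0.21, lower in the portal hypertensive pool by less than the scatter between probe sets. When the floor was raised to the 60th percentile, the Tap1 value was -0.03 and Tap2 had none.

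Among neighbours on chromosome 20, Psmb9 minus Tap1 was 0.62 in log2 ratio and Psmb8 minus Tap2 was 0.28. The scatter of 0.30 is that of single probe sets around their gene and does not measure the spread of such differences. The Tap1 value rests on 1 probe set. Tap1 minus Tap2 was -0.0048, so the transporter chains were level with each other.

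Read as groups, 4 of 5 class II loading genes and 3 of 5 class I processing genes had gene values above 0, beside 46.8% of all genes. The median was 0.36 for class II loading and 0.03 for class I processing, against -0.02 for all genes, and the difference of the medians was 0.33. The class II values ran from -0.31 to 0.68 and the class I values from -0.21 to 0.40, so the groups overlapped. By probe set, 8 of 11 class II probe sets above the floor in both pools were above 0, and 4 of 6 class I probe sets were, beside 2327 of all 4960. Probe sets that name the same source sequence are no independent readings, so these counts overstate the number of readings. At least 1.5-fold higher were 3 class II and 0 class I probe sets, where the share over all 4960 such probe sets was 3.1%, and 0 of the 17 were at least 1.5-fold lower, where the share was 5.38%. The 3 include both RT1-Da probe sets, which name the same source sequence. The difference of the medians stayed between 0.24 and 0.43 under the alternatives, and no test of it is possible with 1 array per pool.

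**Figure D3:**
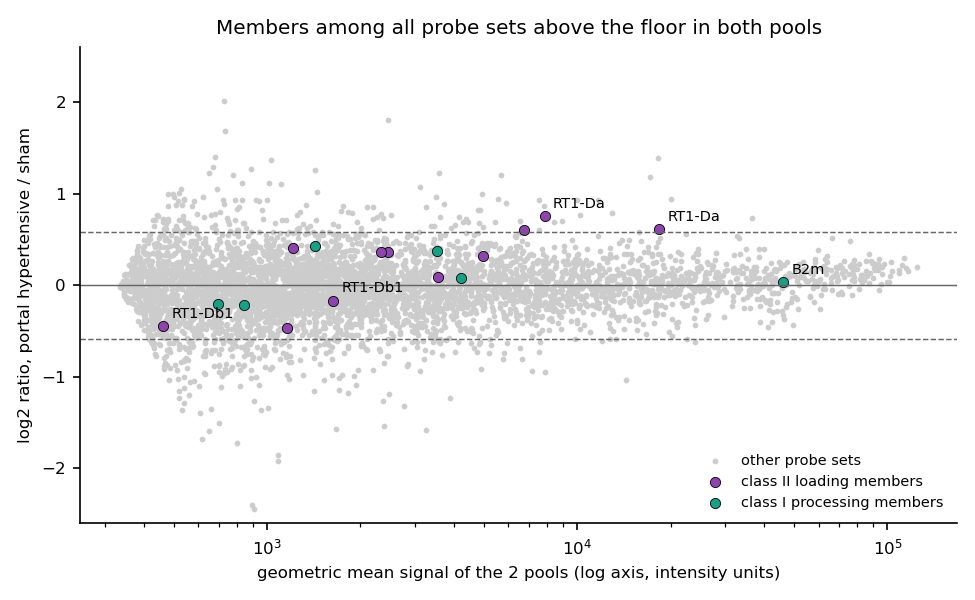
Log2 ratio of portal hypertensive over sham signal against the geometric mean signal of the pools (log axis) for the 4960 probe sets above the floor in both, with the class II loading members in purple and the class I processing members in green. Dashed lines mark 1.5-fold, and the RT1-Da points lie above the upper line in a signal range where the grey points are tightly packed.

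The ratios of all probe sets were tighter at high signal. Among the brightest 20% of the 4960 probe sets, the central 95% of log2 ratios ran from -0.48 to 0.50, and 1.71% were at least 1.5-fold higher. Both RT1-Da probe sets and X13044_g_at of Cd74 belong to this bin and were above that range, and B2m was near its median of 0.03. The Psmb9 and RT1-DMb probe sets, with 0.37 to 0.43, were in the bins 3 and 4 of 5 by signal, whose central 95% ended at 0.58 and 0.64, and were inside them. The RT1-Db1 probe set with -0.45 was in the dimmest bin, where the central 95% began at -0.87. The probe sets of Tap1 and Tap2 and the lower one of RT1-Ba were in the next bin, where it began at -0.90.

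Of 7 further class II genes 4 were on the array, RT1-DOb was below the floor, and RT1-DOa, RT1-DMa and RT1-Bb had gene values of -0.28, -0.17 and 0.01, with a median of -0.17. RT1-DOa encodes a chain of DO, which restrains DM, and gave 3330 in the portal hypertensive pool and 4050 in the sham pool. The list of endosomal processing holds proteases that cut the invariant chain and antigens, and Cst3, which encodes a protease inhibitor. Of its 11 genes 8 had a value, 6 were above 0 and 0 were past 1.5-fold, with a median of 0.25. Ctss, the cathepsin that removes most of the invariant chain, gave 16506 in the portal hypertensive pool and 11699 in the sham pool, a log2 ratio of 0.50. Ctsh had 0.43, Ctsb 0.41 and Ctsc, the activator of granule proteases, 0.34 in log2 ratio, and Ctsc had 0.00 and 0.67 on its probe sets. Cst3 had 0.03, and Ctsd and Ctse both had -0.05. When the probe set of highest level stood for each gene, the median of the list was 0.13.

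Class I heavy chain genes and relatives had a median of 0.15 over 8 genes with a value, of 30 listed, with 5 above 0 and 0 past 1.5-fold. RT1-CE16 gave 27392 in the portal hypertensive pool and 21443 in the sham pool, a log2 ratio of 0.35, on a probe set marked as reading a gene family. Fcgrt, the neonatal Fc receptor chain that pairs with beta-2-microglobulin, had a gene value of 0.36, and Cd1d1, which presents lipids, had 0.21. The Fcgrt probe sets ran from 0.33 to 0.64, the highest past 1.5-fold. RT1-N3 had -0.26. Without shared probe sets the median was 0.00. RT1-A, a classical class I gene, and RT1-M5 were not in the list, and had log2 ratios of 0.25 and -0.26. RT1 probe sets are open to reading close copies, and 5 of the 36 that carry an RT1 symbol have several. Of those naming RT1-A, RT1-CE16 and RT1-A1 together, the signals were 5561, 559 and 452 in the portal hypertensive pool and 6066.5, 525 and 874.5 in the sham pool, so they did not go the same way.

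Genes around class I peptide supply had medians close to that of all genes. Among 11 loading partners and peptide trimming enzymes, 8 had a value, 3 were above 0 and the median was -0.06, with Nrdc at -0.28, Npepps at 0.18, Pdia3 at -0.12 and Canx at -0.10. The Canx probe sets went both ways, from -0.50 to 0.34. Lnpep, an aminopeptidase, gave 519.8 in the portal hypertensive pool and 305.3 in the sham pool, and Thop1, a peptidase, gave 514.4 and 327.8. Their sham signals were just below the floor, so these genes have a value only through the portal hypertensive pool. They were at least 1.57-fold and 1.55-fold higher there, beside 3.13% of all genes at least 1.5-fold higher. With only probe sets above the floor in both pools the median of the list was -0.08 over 6 genes. For 4 genes of the proteasome activators and of proteasome assembly, Psme2, Psme1, Pomp and Psme4, the gene values were 0.12, -0.04, -0.01 and -0.01, with a median of -0.01. Psmb5, the constitutive subunit that Psmb8 replaces, had a gene value of 0.01, and Psmb8 minus Psmb5 was 0.07. The median over 10 structural genes of the proteasome core was -0.03, with 4 above 0 and 0 past 1.5-fold. Psmb4 had 0.40, Psma6 0.12, Psma5 -0.20 and Psmb2 -0.27. The probe sets of Psmb4 ran from 0.34 to 0.73, the highest past 1.5-fold, and those of Psmb2 from -0.45 to -0.09.

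Among regulators and interferon response genes members went both ways. Of 30 listed genes 17 had a value, 10 above 0 and 7 below, with a median of 0.06, and 2 were at least 1.5-fold higher and 2 lower. The shares over all genes were 3.13% and 5.04%. Mx1, an interferon-induced antiviral gene, gave 1843 in the portal hypertensive pool and 1128 in the sham pool, a log2 ratio of 0.71. Irf7, a transcription factor gene of the interferon response, was higher on both probe sets, with log2 ratios of 0.60 and 0.62. The other gene values above 0 were Cxcl10 0.48, Gbp2 0.46, Irf8 0.25, Mx2 0.24, Nfkb1 0.23, Oas1a 0.11, Nfyc 0.06 and Nfya 0.02. Ifngr1, the ligand-binding chain of the interferon-gamma receptor, gave 416 in the portal hypertensive pool and 652 in the sham pool, a log2 ratio of -0.65. Creb1, a factor known to bind class II promoters, had -0.62. Ifng itself stayed below the floor. Irf1, which interferon-gamma induces and which was picked after its values were seen, had a gene value of -0.10. Its probe sets went both ways, with log2 ratios of 0.34 and -0.54. The remaining gene values below 0 were Jak2 -0.30, Nfyb -0.17, Jak1 -0.09 and Rfx5 -0.08.

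**Figure D4:**
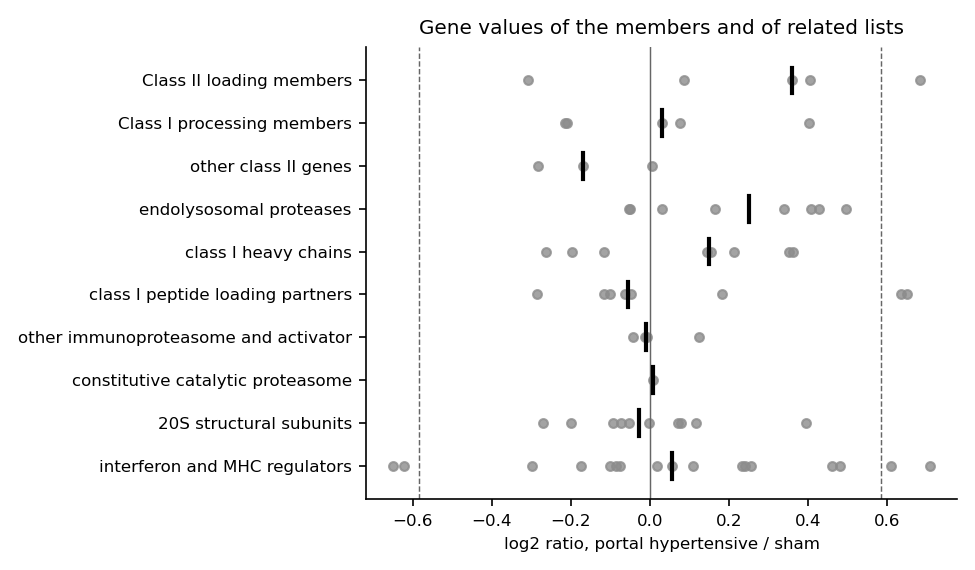
Gene values (points, log2 ratio of portal hypertensive over sham) and medians (bars) of the class II loading and class I processing members and of 8 related gene lists, 1 array per pool. Dashed lines mark 1.5-fold, and the medians of the lists lie between -0.17 and 0.36.

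The pools also differed in markers of cells that carry class II. Of 21 macrophage markers 10 were on the array and 8 had a value, 6 above 0, with a median gene value of 0.37, and Csf1r and Itgam were below the floor in both pools. Summed over the brightest probe set of each of the 8 genes the signal was 63161 in the portal hypertensive pool and 50645.5 in the sham pool, a sum that rests mostly on the bright probe sets of Lyz2 and Lgals3. C1qb, a complement gene of tissue macrophages, had a gene value of 0.45, Lgals3 0.48, Fcgr2b 0.92, Aif1 0.46, C1qc 0.30 and Lyz2 0.21. Ptprc had -0.48 and Cd14 -0.14, but the probe sets of each of these genes went opposite ways. Their log2 ratios were -0.48, -0.63 and 0.995 for Ptprc and 0.04 and -0.32 for Cd14. Dendritic cell markers had a median of -0.08 over 4 of 10 genes, with summed signals of 1495.5 in the portal hypertensive pool and 1827 in the sham pool. Their signals were close to the floor. Itgae and Cd80, the ones below 0, were above the floor only in the sham pool. Cd86 and Cd40 were above it in both pools, with gene values of 0.13 and 0.19, so no direction was settled for this list. The only B cell marker on the array, of 10 listed, was Cd79b, with 314.3 in the portal hypertensive pool, below the floor, and 562.1 in the sham pool. T and natural killer cell markers had a median of -0.31 over 7 of 16 genes, with Cd8a, Cd2, Cd5, Cd28, Prf1 and Klrd1 below the floor, and summed signals of 4877 in the portal hypertensive pool and 5511 in the sham pool. Of the 7 genes 2 were above 0 and 5 below. Among those below, Cd3d was above the floor only in the sham pool, and Cd247 was barely above it in the portal hypertensive pool. In a whole vessel, more cells of a type and more RNA per cell cannot be told apart, and the part of these cells in the ratios of RT1-Da and Cd74 was not tested.

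Markers of the vessel itself were present. All 10 smooth muscle genes on the array had a value, with a median of -0.09 and none past 1.5-fold. Endothelial markers had a median of -0.29 over 5 genes, 5 of 5 below 0 and 2 at least 1.5-fold lower, where the share over all genes was 5.04%, and Vwf, Kdr and Sele were below the floor in both pools. The medians were 0.22 for 8 fibroblast genes, 0.42 for 8 adipocyte genes, 0.16 for 5 mast cell genes and 0.20 for 2 genes of lymph node and mesothelium. Above 0 were 7 fibroblast, 6 adipocyte and 4 mast cell genes, and below 0 were 1, 2 and 1. At least 1.5-fold higher were 1 fibroblast, 2 adipocyte and 2 mast cell genes, beside 3.13% of all genes, and 0 were as much lower. Gene values ran from -0.17 to 0.93 for fibroblasts, -0.34 to 1.01 for adipocytes and -0.37 to 1.20 for mast cells. The macrophage median of 0.37 was below the adipocyte one.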

How the data were processed

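The authors deposited a linear signal intensity for each of 8799 probe sets on each array, 59 of them controls. The software and scaling are not stated in the sources used here, but means after trimming 2% at each end were 2504.38 (portal hypertensive) and 2504.33 (sham), so the intensities were used as deposited, with no detection calls. Array type, cRNA amount and fluidics module were read from the file headers. Of the probe sets, 7018 had a single symbol in the platform annotation, 308 several and 1473 none, and only the first were used to name genes. Log2 ratios (numpy 2.4.6, pandas 2.3.3, loess with statsmodels 0.14.6) were computed with the floor and checked on simulated data with known changes. Named genes outside the 10 were, per list, up to 4 with the largest absolute value among those with a probe set above the floor in both pools and any past 1.5-fold. For the list of regulators and interferon response genes every gene with a value was named, with the values in view. The cell markers named, Irf1, Cst3, Ctsd, Ctse, RT1-A, RT1-M5, the probe sets with several RT1 symbols and the motif letters were picked with values or windows in view. The members and lists were chosen with earlier results of these data known.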

Additional observations from a re-analysis of the deposited data

How the results depend on the processing

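In 8 alternative settings, 57 of 64 group medians and counts and 137 of 142 gene or list values differed from the reported value by less than the scatter between probe sets of a gene (SD 0.30, divided by the square root of the number of genes for a median) or, for counts, by less than 1.5 times. Only the RT1-Da value was past 1.5-fold, and it kept its sign. Smaller values changed sign in some settings. These were RT1-Ba, B2m, Psmb5 and the medians of class I processing, the other class II genes, the proteasome activators and assembly and the structural core genes. The number of genes at least 1.5-fold higher was 300 for a floor at the 20th percentile, 45 at the 60th and 455 with no filter on low signal, and the number lower was 334, 64 and 487, as more or fewer dim probe sets entered. With the probe set of highest level for each gene, 2 of the 10 members were at least 1.5-fold higher, RT1-Da and Cd74, beside 108 of 3351 genes. Cd74 passed on X13044_g_at, by 1.51-fold, and its other probe sets above the floor did not. The class II median lay between 0.27 and 0.41 and the class I median between -0.09 and 0.05, the negative values coming after the loess (-0.04) and without shared probe sets (-0.09). The median of the interferon and regulator list was 0.14 for a floor at the 60th percentile, and that of the other class II genes was 0.01 without shared probe sets, where 1 gene was left. The causes were not tested. No paired analysis was possible because each group is 1 pool on 1 array, and leaving out a sample would leave no comparison. Detection calls were not used here, so signal near the floor limits what can be said of Tap1, Tap2 and RT1-Db1.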
